A study of Mus musculus with 10 samples.

Results

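RNA of the germ cell fraction labelled as spermatogonia was compared with RNA of the whole testis, using 4 of the 10 samples of the series. The spermatogonia fraction was fraction 2 of a discontinuous Percoll gradient, prepared from enzyme-digested testes of 8-day-old C57BL/6 males. The whole testis samples came from C57BL/6 males aged 15 days. The groups therefore differed in age as well as in fractionation, and these cannot be told apart. The other 6 samples, read here only to describe genes of this comparison, were a leptotene/zygotene fraction (fraction 5, day 12), a pachytene fraction (fraction 8, day 15) and a mix of 11 somatic tissues (day 15). Each group had 2 samples, numbered 1 and 2, and the number also set the array design: samples numbered 1 were on the first of 2 Affymetrix mouse designs and samples numbered 2 on the second, which carries other probe sets. Most genes were thus read from 1 array per group (n = 1), which allows no test, and the small number of arrays sets the precision of all values. Neither the number of animals pooled per sample nor whether samples 1 and 2 were separate preparations is given in the sources used here.

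Spermatogonia are the mitotic germ cells at the base of the seminiferous tubule. Some self-renew under GDNF and FGF signals from Sertoli cells, and the others divide under the KIT receptor and retinoic acid until they enter meiosis. In the first wave of spermatogenesis the testis of the younger age holds spermatogonia and somatic cells, while the testis of the older age also holds leptotene to pachytene spermatocytes. Whole testis contains Sertoli cells, peritubular myoid cells, Leydig cells, vessels and macrophages besides its germ cells, and RNA of all of them enters the comparison. In bulk RNA, fewer cells of a type and less RNA per cell cannot be told apart.

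The values below are Affymetrix signals on a linear scale, brought to a common trimmed mean within each design. A signal at or below a floor (87.3 on the first design, 47.0 on the second) was read as the floor, and folds against the floor are lower bounds. Their size moves with the floor: with it at the 60th percentile of all signals the log2 bounds of Ldhc, Apoa1 and Ier3, described below, were -6.20, -5.38 and 4.61 in place of -7.57, -6.74 and 5.98. Of 18193 genes, 13968 were above the floor in at least 1 of the groups compared, and 4225 were at the floor in both and have no difference. Signals are given as the fraction against whole testis, and a number in parentheses without a unit is the log2 difference between them, negative where the fraction was lower; "bound" marks one taken against the floor. A gene was called where the groups differed at least 4-fold. The error of a log2 difference, from 100 probe sets placed on both designs, was 0.276. The error limit used below is the 95% limit from that error, 0.542, and it rests on bright probe sets. The error includes a shift between the designs, since the differences of the shared probe sets averaged higher on the second design. The same limit is used for genes of both designs and does not remove this shift. Scaling to the shared probe sets moved Fos (first design) from 6.24 to 6.09 and Irf2bpl (second design) from 4.52 to 4.08. The differences of the 100 probe sets correlated across the designs with r = 0.907, a description across probe sets that are not independent.

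Control probe sets showed that the arrays differed in RNA quality measures. The signal ratio of the 3′ to the 5′ probe set of Gapdh was 1.11 and 1.13 in the spermatogonia fraction (first and second design) and 4.33 and 3.75 in whole testis. For beta-actin the ratios were 3.33 and 3.40 against 5.22 and 6.57. Whole testis had the higher ratio for both transcripts on both designs. The control probe set of 18S ribosomal RNA had signals of 2174 and 2716 in the fraction against 176 and 154 in whole testis. The part of these measures in the results below was not tested. The share of probe sets above the floor was 59.8% and 48.5% in the spermatogonia fraction and 60.2% and 52.2% in whole testis.

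The whole testis array also carried transcripts of organs other than testis. Cela1, a pancreatic elastase, had a signal of 97.0 in the spermatogonia fraction and 3561 in whole testis, 36.7-fold lower in the fraction. Apoa1, the main apolipoprotein of high-density lipoprotein, made by liver and intestine, was at 35.7 against 9350, at least 107-fold lower. Fabp2, the intestinal fatty acid-binding protein, was at 2.84 against 6887, at least 78.9-fold lower. These 3 genes were bright in the somatic mix (20105, 19657 and 10706 in the same order) and at or near the floor in the leptotene/zygotene and pachytene fractions (from 3.28 to 133). Pancreas is not among the tissues that the labels list for that mix. Of 22 measured exocrine pancreas genes, 19 were at least 4-fold lower in the fraction and none higher, and their summed signal was 1148 in the fraction, 48574 in whole testis and 286240 in the mix. Of 31 measured liver plasma protein and intestinal genes, 21 were at least 4-fold lower and none higher, with sums of 2451, 61957 and 235140. Both lists were drawn up after these signals had been seen. Among the named genes with the largest differences, Alb, Apoa4 and Fabp1 were of this kind. The serum albumin gene Alb was at 94.9 against 3907 and the apolipoprotein gene Apoa4 at 6.88 against 9684. The liver fatty acid-binding protein gene Fabp1 was at 18.6 against 7130. The apolipoprotein gene Apoc2 (116 against 5056) was also bright in the somatic mix (8495), but was above the floor in leptotene/zygotene (449) and pachytene (1233). A list of markers of other organs had 7 of 23 measured members called lower and none higher (median -0.93). Epididymal genes were also present: Lcn5, a lipocalin of the epididymis, was at 3.22 against 453, Gpx5, an epididymal glutathione peroxidase, at 43.0 against 605, and Defb42, an epididymal beta-defensin, at 436 against 3454. Of 8 measured epididymal genes 4 were called lower and none higher (median -1.95). In the mix Lcn5, Gpx5 and Defb42 were at 10.1, 66.4 and 128, below their signals in whole testis. The 8 measured genes summed to 724 in the fraction, 334 in leptotene/zygotene, 3257 in pachytene, 6561 in whole testis and 1286 in the mix. The summed signal was thus not confined to whole testis.

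**Figure D1:**
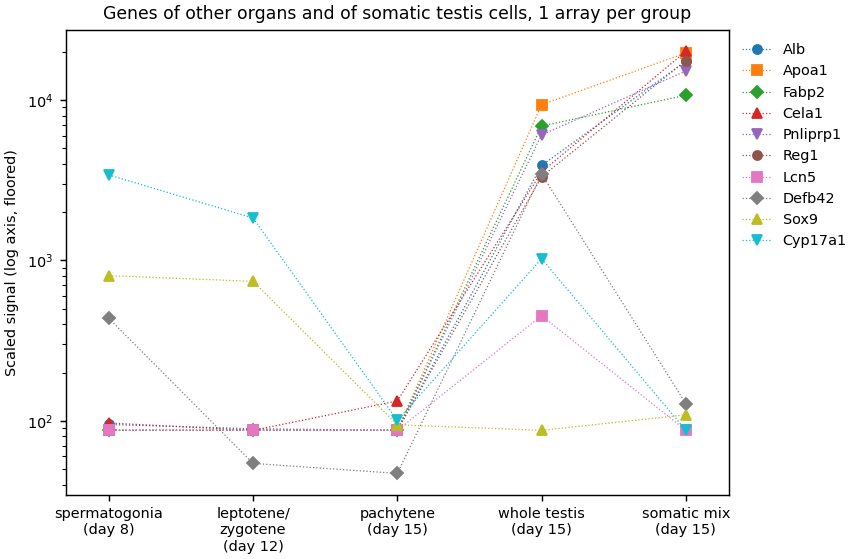
Scaled signal (log axis, values at or below the floor drawn at the floor) of 8 genes of pancreas, liver, intestine and epididymis and of the Sertoli gene Sox9 and the Leydig gene Cyp17a1 in the 5 groups, 1 array each. The organ genes are bright in whole testis and, except for the epididymal Lcn5 and Defb42, in the somatic mix. Sox9 and Cyp17a1 are highest in the spermatogonia fraction, with Sox9 nearly as high in leptotene/zygotene (804 and 741).

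Over all genes, 277 were at least 4-fold higher in the spermatogonia fraction (1.98% of those measured) and 731 at least 4-fold lower (5.23%). Of these, 63 and 387 were called against a group at the floor. The median over the 11307 genes above the floor in both groups was 0.07. Beyond the error limit, 25.1% of the measured genes were higher and 24.9% lower, which is the background for the counts of list members below. Leaving out genes at the floor in all 3 germ cell fractions, among them Apoa1 and Fabp2, gave 649 lower, an alternative chosen after seeing the data. The 277 higher calls could not change, since a gene called higher is above the floor in the spermatogonia fraction. This step did not remove all organ transcripts: Alb (-5.36) and Cela1 (-5.20) remained, and the exocrine pancreas median stayed at -4.63. Among the 731 lower genes, 556 had their highest signal in the pachytene fraction, 133 in the somatic mix, 41 in whole testis and 1 in leptotene/zygotene. Among the 277 higher genes, 227 were brightest in the spermatogonia fraction itself, 35 in leptotene/zygotene, 12 in the somatic mix and 3 in pachytene. The call itself keeps lower genes from being brightest in the spermatogonia fraction and higher genes from being brightest in whole testis. Pachytene was above whole testis in 77.3% of lower, 48.7% of higher and 39.7% of all measured genes. The somatic mix was above whole testis in 18.7%, 80.5% and 48.3%, in the same order. Scaling to the shared probe sets moved the median by -0.20 and gave 187 higher and 854 lower.

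**Figure D2:**
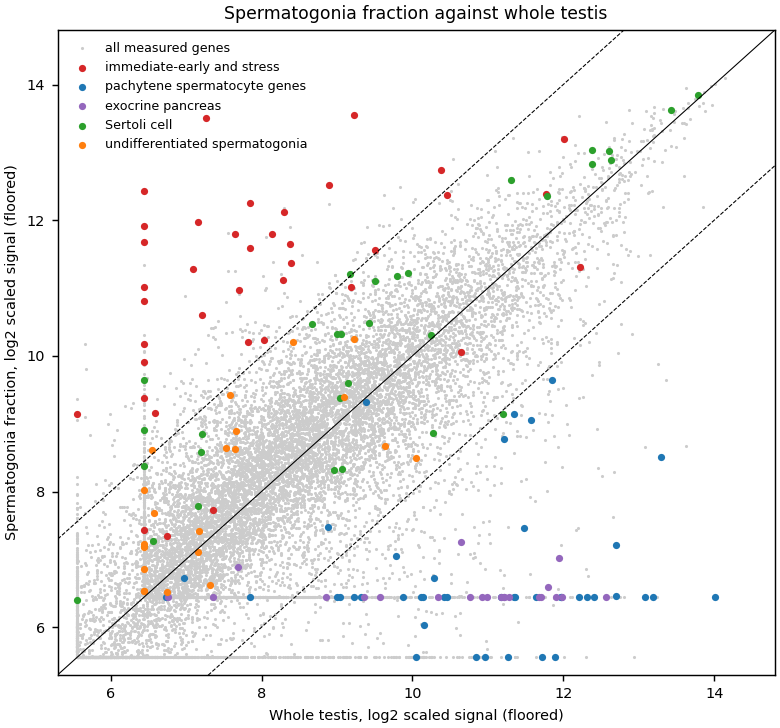
Log2 scaled signal of each measured gene in whole testis (x axis) and in the spermatogonia fraction (y axis), 1 array per group, with the solid line at no difference and dashed lines at 4-fold; points along the lower and left edges are at the floor of their design. Most immediate-early genes lie above the upper dashed line, most pachytene spermatocyte and exocrine pancreas genes below the lower one, and spermatogonial and Sertoli genes mostly between the solid and upper lines.

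Genes of meiotic prophase and of the sperm tail were far lower in the spermatogonia fraction than in whole testis. Ldhc, the lactate dehydrogenase of spermatocytes and sperm and the spermatocyte marker given for this comparison, had a signal of 58.8 in the fraction, below the floor, and 16538 in whole testis, at least 189-fold lower. Its signal was 1855 in leptotene/zygotene and 23494 in pachytene, and its other probe set gave a bound of -7.40. Of 43 measured pachytene spermatocyte genes, 38 were at least 4-fold lower and none higher, and the list median was -4.13 against 0.00 over all measured genes; 5 further members were at the floor in both groups. Of 43 measured genes of the axoneme and its assembly, 27 were at least 4-fold lower and none higher (median -2.73).

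The promoters of some of these genes share the letters of the X-box, the element bound by RFX factors at many ciliary genes. The GTTGCC arm of the X-box, searched on both strands in the 250 bases before the RefSeq start, occurred in 14 of 44 axoneme genes with a promoter sequence (31.8%), in 8 of 32 pachytene genes (25%), in 3 of 33 immediate-early genes (9.09%) and in 3195 of 27025 genes overall (11.8%). A match is only a run of letters. The sequences are shown because each match lies close to the start; they are the 120 bases that end just before it, from the RefSeq promoter table on GRCm38.p6, read in the direction of the gene, with matches on either strand in capitals.
Ropn1l: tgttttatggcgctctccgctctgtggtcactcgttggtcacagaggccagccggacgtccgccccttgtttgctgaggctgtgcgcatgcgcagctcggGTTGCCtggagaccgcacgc
Mdh1b: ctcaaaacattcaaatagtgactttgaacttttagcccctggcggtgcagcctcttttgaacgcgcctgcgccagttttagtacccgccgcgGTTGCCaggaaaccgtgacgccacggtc
Spata4: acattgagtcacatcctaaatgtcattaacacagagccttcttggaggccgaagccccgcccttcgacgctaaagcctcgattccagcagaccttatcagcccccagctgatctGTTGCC
Tekt1: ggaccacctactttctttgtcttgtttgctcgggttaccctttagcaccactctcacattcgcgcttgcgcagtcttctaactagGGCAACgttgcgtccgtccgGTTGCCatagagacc
These lie at chr15:31453690-31453809 (minus strand, Ropn1l), chr1:63730319-63730438 (minus, Mdh1b), chr8:54600661-54600780 (plus, Spata4) and chr11:72361883-72362002 (minus, Tekt1). The match begins 20 bases before the start in Ropn1l, 28 in Mdh1b, 6 in Spata4, and 35 and 15 in Tekt1, where the farther one is on the opposite strand. The MYB site AACTGCC was found in 3 of 32 pachytene genes (9.38%) and 3.86% of all genes. It was also in 2 of 44 axoneme genes (4.55%) and 2 of 33 immediate-early genes (6.06%), so these shares rest on few genes.

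Ropn1l, a ropporin-related protein of the flagellum, had a signal of 87.9 in the spermatogonia fraction, just above the floor, against 6626 in whole testis (75.4-fold lower). Its log2 difference was -6.24, was -4.88 with the floor at the 60th percentile, and was -3.64 with a separate probe set on the second design. Mdh1b, a malate dehydrogenase-like gene, was at 51.5 against 2040 (39.6-fold lower), Spata4 at 15.6 against 8703 (at least 99.7-fold), and Tekt1, a tektin of the flagellar microtubules, at 30.2 against 1726 (log2 bound -4.31). All 4 genes were brightest in pachytene, with 11402, 4038, 11658 and 3804. Other flagellar genes among those with the largest differences were Dnaaf1, a dynein arm assembly factor (108 against 5146), Morn5 (80.5 against 3714), Meig1, which acts in building the sperm tail (148 against 6656), and Ttll8, a tubulin glycylase (55.3 against 2005). Their folds ranged from 36.2 to 47.6, but the other probe set of Dnaaf1 gave a log2 difference of -1.78. Shcbp1l, a gene of male meiosis, was at 86.5 against 3770. Dnah8, the axonemal dynein heavy chain, was at 198 against 6476 (-5.03), but its other probe set gave -0.23. Axonemal members were not all lower: Ift20 (0.13), Dnah9 (0.18) and Rsph4a (-0.18) lay within the error limit and Morn1 was higher (0.96), with a range of -1.67 to 0.96 over its probe sets. All 6 axonemal genes with a separate probe set on the second design were lower there too, with a median of -1.14.

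Among pachytene spermatocyte genes the differences followed no common size. Fabp9, a fatty acid-binding protein of spermatocytes and spermatids, was at 34.8 against 9298 (at least 107-fold lower), while its other probe set gave -0.98. Pdcl2 (4.92 against 5419), Spink2, an acrosomal protease inhibitor (39.6 against 3378), and Crisp2, a sperm secretory protein (5.61 against 4001), were below the floor in the fraction. Clgn, the calmegin chaperone of spermatocytes, was at 75.1 against 4748, with -4.20 on the second design. Piwil1, the pachytene Piwi protein, was at 45.7 against 1408 (bound -4.01), and Hspa2, the meiotic chaperone, at 534 against 3031 (-2.51). At the other end Mybl1, the transcription factor that drives the pachytene programme, was at 106 against 126 (-0.24), and Slc25a31, the germ cell adenine nucleotide carrier, at 641 against 670 (-0.06). Pgam2, the muscle and germ cell phosphoglycerate mutase, was below the floor in the fraction and at 5106 in whole testis, but it was also at 4694 in the somatic mix.

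**Figure D3:**
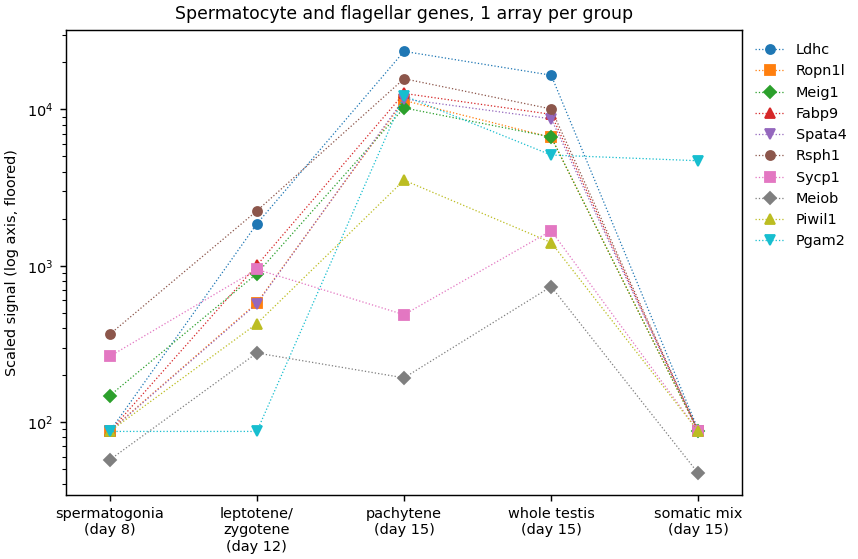
Scaled signal (log axis, values at or below the floor drawn at the floor) of 10 spermatocyte, flagellar and meiotic genes in the 5 groups, 1 array each; dotted lines join the points of a gene. Ldhc, Ropn1l, Meig1, Fabp9, Spata4, Rsph1, Piwil1 and Pgam2 are highest in pachytene, whereas Sycp1 and Meiob are highest in whole testis.

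Meiotic chromosome genes were lower in the spermatogonia fraction by less. Of 18 synaptonemal complex and meiotic cohesin genes, 6 were at least 4-fold lower, 15 lower beyond the error limit and 2 higher beyond it (median -1.65). Sycp1, the transverse filament protein, was at 263 in the fraction against 1675 in whole testis (-2.67), and its 949 in leptotene/zygotene and 487 in pachytene were also below whole testis. Sycp3, of the lateral element, was at 1216 against 3364 (-1.47), and Smc1b, a meiotic cohesin subunit, at 278 against 1290 (-2.21). Rec8, the meiotic kleisin, went the other way, at 177 against 116 (0.60). Signals of Sycp3 and Syce2 (2574 against 3813, -0.57) were well above the floor in the fraction.

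Of 19 measured recombination genes, 3 were at least 4-fold lower, 12 lower beyond the limit and 1 higher (median -0.87). Meiob, a single-stranded DNA-binding partner of SPATA22, was at 57.4 against 737 (-3.68). Psmc3ip, the cofactor of the recombinases, was at 291 against 2033 (-2.81), and -2.96 with its probe set on the second design. Spo11, which makes the meiotic DNA breaks, was at 107 against 652 (-2.61). Among those within the error limit were Dmc1, the meiotic recombinase, at 213 against 289 (-0.44), Tex11, at 270 against 268 (0.01), Prdm9, which marks the sites of breaks, at 119 against 96.8 (0.30), and Rec114 (0.50). Mei1, needed for break formation, was higher at 243 against 159 (0.61). All 6 recombination genes within the limit were dimmer in pachytene than in leptotene/zygotene, as for Dmc1 (668 and 87.5) and Tex11 (641 and 40.1).

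The piRNA pathway, which silences transposons in germ cells, was represented by 20 measured genes, of which 5 were at least 4-fold lower, 16 lower beyond the limit and none higher (median -1.52). Besides Piwil1, these were Ddx25 (345 against 3449, -3.32), Tdrd7 (438 against 2369, -2.43), Tdrd9 (450 against 2337, -2.38) and Piwil2 (568 against 2605, -2.20). The pan-germ-cell genes Ddx4, the Vasa helicase (707 against 1915, -1.44), and Dazl, an RNA-binding protein (1597 against 3254, -1.03), were lower in the fraction as well. The other probe set of Dazl gave 1.49. Of 34 spermatid genes 19 were at the floor in both groups, among them the protamine and transition protein genes Prm1, Prm2, Tnp1 and Tnp2. Of the 15 measured, 4 were called lower (median -0.89): Dnah8 and Tekt1, described above, Tekt2 (87.9 against 483, -2.46) and Zpbp, an acrosomal protein (34.2 against 950, bound -3.44). Acr, the acrosin gene, was at 41.7 against 322 (bound -1.88).

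Markers of spermatogonia were higher in the fraction by a small amount. Of 21 measured genes of undifferentiated spermatogonia, 1 was at least 4-fold higher and none lower, 11 were higher beyond the error limit and 3 lower (median 0.74). That gene was Etv5, a transcription factor induced by GDNF and FGF, at 391 in the fraction against 93.4 in whole testis (2.07), 259 in leptotene/zygotene and 53.6 in pachytene. Its value rests on 1 probe set of the second design, since its 2 probe sets on the first were at the floor. The difference was 1.63 with scaling to the shared probe sets, and with quantile normalization or median scaling the gene was read from the first design and had no value. Cd9, a tetraspanin of stem spermatogonia, was at 688 against 191 (1.85), and Itga6, the laminin-binding integrin alpha 6, at 1176 against 343 (1.78). Sohlh1, a helix-loop-helix factor of spermatogonia (473 against 203, 1.22), Sall4 (401 against 185, 1.12), Zbtb16, the PLZF repressor (206 against 95.5, 1.11), and Uchl1 (1215 against 599, 1.02) were also above the error limit. The 4 genes Sohlh1, Sall4, Zbtb16 and Uchl1 were brighter in the leptotene/zygotene fraction than in the spermatogonia fraction, with 671, 750, 294 and 2341.

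Several stem cell genes lay within the error limit or at the floor. Gfra1, the GDNF co-receptor, was at 172 against 145 (0.25), Foxo1 at 674 against 549 (0.30), and Neurog3 at 92.7 against a value below the floor (0.09). Eomes, Pax7, Lhx1 and Lhx2 were at the floor in both groups. Id4 was lower, at 362 against 1058 (-1.55), with 1989 in pachytene, but its 3 probe sets ranged from -1.55 to 1.24. Itga6, Cd9 and Thy1 (98.9 against 159, -0.69) were also present in the somatic mix, at 782, 505 and 600.

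Genes of differentiating spermatogonia and meiotic entry split. Of 23 measured, 1 was called higher and 1 lower, 9 were higher and 6 lower beyond the limit, and the median was 0.24; it was -0.98 on the second design alone. Kit, the receptor of differentiating spermatogonia, was at 416 against 274 (0.60). Stra8, induced by retinoic acid at the start of meiosis, was at 2081 against 1339 (0.64), and both genes were brighter in leptotene/zygotene (748 and 3295). Ccnd2, a D-type cyclin and a marker given for this comparison, was at 3789 against 1020 (1.89), just below the call. Its probe sets disagreed in size: 4 others above the floor in the fraction gave 1.72 to 4.21, and the mean over all 7 probe sets, 2 of them at the floor in both groups, gave 2.28. Elavl2, an RNA-binding protein, was the called gene, at 552 against a value below the floor (at least 6.32-fold), with -0.35 to 2.66 over 5 probe sets. Dmrtb1, a regulator of the switch from mitosis to meiosis, was the gene called lower, at 218 against 1249 (-2.52), and it was at 4425 in pachytene. Sohlh2 (-1.06), Ythdc2 (-1.03) and Meioc (-0.98), of which the last pair act together at meiotic entry, were lower without reaching the call.

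Cell division genes showed no shift of this size. None of 37 measured DNA replication and cell cycle genes was called, with 6 higher and 14 lower beyond the limit (median -0.28). Aurka, a spindle kinase, was at 313 against 1089 (-1.80), and Ube2c, a ubiquitin-conjugating enzyme of mitotic exit, at 1043 against 331 (1.65). Mki67 was at 1074 against 2113 (-0.98) and Pcna at 4642 against 5812 (-0.32), within the limit. Mcm2 and Top2a had probe sets of opposite sign (-1.10 and 0.78, and -1.12 and 1.03).

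Somatic cell genes of the testis were higher in the fraction labelled as spermatogonia, beside the spermatogonial ones, with list medians of 0.72 (Sertoli), 1.02 (Leydig) and 0.88 (peritubular and stromal) where that of undifferentiated spermatogonia was 0.74. The order of these medians changed with the design: on the first alone they were 0.74 (Sertoli), 0.93 (peritubular) and 0.41 (undifferentiated spermatogonia), and on the second alone 0.64, 0.49 and 0.76. Of 32 measured Sertoli genes, 3 were at least 4-fold higher and 1 lower, 20 were higher and 4 lower beyond the limit. Their summed signal was 92466 in the fraction, 84365 in leptotene/zygotene and 67251 in whole testis. A sum above whole testis was thus not particular to the spermatogonia fraction. Sox9, the Sertoli transcription factor, was at 804 against a value below the floor (at least 9.21-fold), though its other probe set on the first design gave 0.32 against the floor and that on the second was below the floor in the fraction (bound -0.17). Its call thus rests on 1 of 3 probe sets, which was at 741 in leptotene/zygotene. Amh, the anti-Müllerian hormone of immature Sertoli cells, was at 482 against a value below the floor (at least 5.52-fold), and Inhbb, an inhibin subunit, at 2371 against 576 (2.04). Gdnf, the Sertoli niche factor for stem spermatogonia, was at 331 against a value below the floor (at least 3.79-fold), and Kitl, the KIT ligand, at 2204 against 726 (3.04-fold). Clu, an abundant Sertoli product, lay within the error limit (14728 against 14076, 0.07). The secreted products Cst9 (0.25), Cst12 (0.20) and Defb19 (0.46) lay within it too. Krt8 and Krt18, keratins listed as Sertoli genes, were lower (-2.06 and -1.41); their signals in the somatic mix were 7828 and 2518.

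Steroidogenic genes of Leydig cells were also higher. Of 15 measured, 1 was called higher and none lower, and 12 were higher beyond the limit (median 1.02, summed signal 26182 against 13984). Their sum in leptotene/zygotene, 17337, was also above whole testis. Hsd17b3, which makes testosterone, was at 937 against a value below the floor (at least 10.7-fold). Cyp17a1, the Leydig marker given for this comparison and the enzyme that makes androgen precursors, was at 3413 in the fraction against 1025 in whole testis (1.73). It was at 1838 in leptotene/zygotene, 101 in pachytene and 10.8 in the somatic mix, so the spermatogonia fraction was the brightest of the 5 groups for this gene. Hsd3b1 was at 3242 against 1333 (1.28) and Cyp11a1 at 528 against 219 (1.27), where a probe set on the second design gave 0.31. Star, the carrier of cholesterol into mitochondria, was at 542 against 294 (0.88). Genes of cholesterol synthesis and uptake stood at a median of 0.89, with 13 of 21 higher beyond the limit and 1 lower. They summed to 22936 in the fraction, 20996 in leptotene/zygotene and 13287 in whole testis. Insig1, a sterol sensor, was the called member at 715 against 151 (2.25), followed by Fdps (1945 against 507, 1.94) and Srebf2, the transcription factor of the pathway (394 against 110, 1.85).

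Peritubular, stromal and basement membrane genes were higher too. Of 32 peritubular, stromal and smooth muscle genes, 5 were called higher and none lower, and 22 were higher beyond the limit (median 0.88, summed signal 99984 against 56174). Cdh11, a mesenchymal cadherin, was at 1367 against 161 (3.08), Mylk, myosin light chain kinase, at 7664 against 1483 (2.37), and Tcf21, a stromal progenitor factor, at 2206 against 514 (2.10). Mylk and Tcf21 each had a probe set near 0 (0.25 and 0.11). Acta2, smooth muscle actin, was at 12692 against 7457 (0.77), while Col1a1 and Col3a1 lay at 0.01 and 0.05. Of 18 basement membrane genes none was lower and 15 were higher beyond the limit (median 1.14), led by the laminin gene Lama2 (4166 against 924, 2.17) and the collagen IV genes Col4a5 (674 against 198, 1.77) and Col4a2 (2956 against 870, 1.76). Endothelial genes had a median of 0.39, with 8 of 17 higher and none called. In leptotene/zygotene the peritubular, stromal and smooth muscle genes summed to 51469, below whole testis. The basement membrane genes summed to 12676 there, above whole testis (10303). How much each of these cell types contributed to the spermatogonia fraction was not measured.

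Macrophage and epithelial genes went the other way. None of 21 measured macrophage genes was higher beyond the limit, 14 were lower, and 4 were called lower (median -1.02, summed signal 3055 against 8351, and 27994 in the somatic mix). On the second design alone the median was -0.13. Csf1r, the CSF1 receptor, was at 264 against 1487 (-2.49), Ctss at 175 against 964 (-2.46), and C1qb at 72.9, below the floor, against 417 (bound -2.26). Csf1r, Ctss and C1qb were at 1308, 516 and 519 in pachytene. Of 4 measured red blood cell genes none was called and 2 were lower beyond the limit (median -0.67). Of 21 keratin and epithelial junction genes 5 were called lower and none higher (median -0.59): Krt19 (77.8 against 889), the desmoplakin gene Dsp (80.1 against 764), Cldn3 (153 against 690), Cdh1 (171 against 755) and Krt8. Each was brighter still in the somatic mix, from 1438 to 7828. Leaving out the genes at the floor in all 3 fractions turned the median of this list to 0.059, and the second design alone gave 0.61. The junction genes Cldn11 (1416 against 408, 1.80) and Ocln (356 against 153, 1.22), both of the Sertoli cell barrier, were higher beyond the limit.

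**Figure D4:**
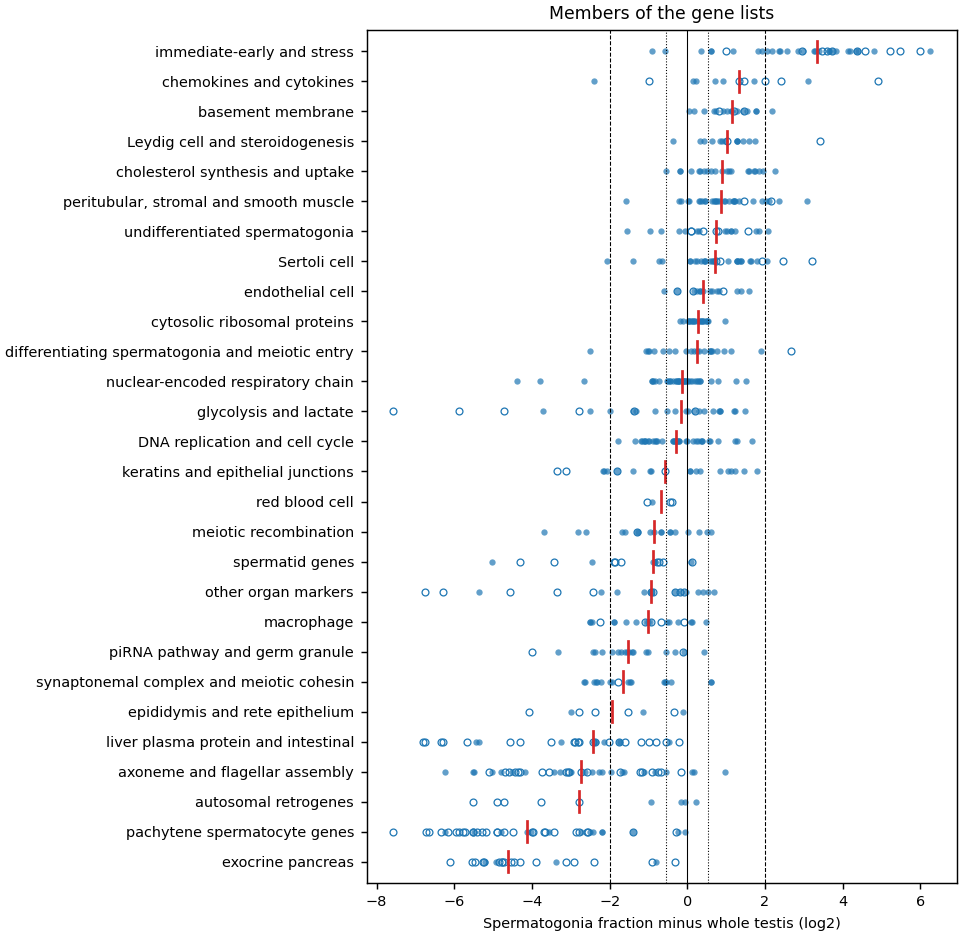
Log2 difference between the spermatogonia fraction and whole testis for each measured member of 28 gene lists, ordered by list median (red bars); open circles are genes at the floor in 1 of the groups, taken at their bound. Dotted lines mark the error limit of 0.542 and dashed lines 4-fold; the immediate-early list lies highest (median 3.33), and the exocrine pancreas (-4.63) and pachytene spermatocyte lists (-4.13) lowest.

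The largest differences in favour of the fraction were those of immediate-early and stress genes, which cells switch on within minutes of a stimulus. Called higher were 29 of the 38 measured members and called lower were none, 35 were higher and 2 lower beyond the limit, and the median was 3.33. Their summed signal was 126120 in the spermatogonia fraction, 90543 in leptotene/zygotene, 34810 in pachytene, 23529 in whole testis and 24818 in the somatic mix. Fos, a subunit of the AP-1 factor, was at 11645 in the fraction and 154 in whole testis, 75.5-fold higher, with 9032 in leptotene/zygotene, 5015 in pachytene and 601 in the mix. Of the 10 named genes with the largest difference among those above the floor in both groups, 6 were on this list.

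**Figure D5:**
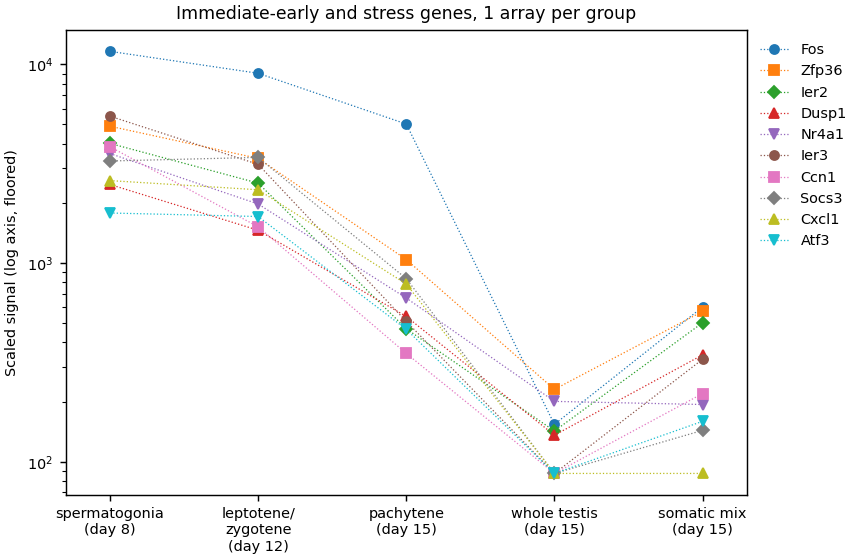
Scaled signal (log axis, values at or below the floor drawn at the floor) of 10 immediate-early and stress genes in the 5 groups, 1 array each; dotted lines join the points of a gene. All 10 are higher in the spermatogonia, leptotene/zygotene and pachytene fractions than in whole testis, where Ier3, Ccn1, Socs3, Cxcl1 and Atf3 are at the floor.

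The list holds transcription factors, signal inhibitors and growth arrest genes. Among the factors, Egr1, a zinc finger protein, was at 12019 in the fraction against 598 in whole testis (20.1-fold higher), Nr4a1, an orphan nuclear receptor, at 3561 against 201 (17.7-fold), Jun at 3203 against 331 (3.27) and Klf4 at 3542 against 283 (3.65). Fosb was at 2080, Junb at 1160 and Atf3 at 1787, each against a value below the floor (at least 23.8-fold, at least 13.3-fold and at least 20.5-fold). Among the inhibitors, Zfp36, which binds AU-rich messages and speeds their decay, was at 4888 against 231 (21.1-fold), Dusp1, a phosphatase of MAP kinases, at 2488 against 136 (18.3-fold), and Socs3, an inhibitor of JAK-STAT signalling, at 3266 against a value below the floor (at least 37.4-fold). Ier2 was at 4005 against 143 (28.1-fold). Ier3, at 5492, and Ccn1, a secreted matrix protein, at 3853, were called against the floor (at least 62.9-fold and at least 44.1-fold). Ccn1 was read from a probe set marked as cross-hybridising. All 4 of its probe sets were called the same way, but with log2 differences from 2.69 to 5.46, and 2.98 on the second design. Each gene named in this paragraph was also brighter in the leptotene/zygotene and pachytene fractions than in whole testis.

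Heat shock genes on the list did not move together. Hspb1 (6859 against 1337, 2.36) and Hspa1a (1179 against 227, 2.38) were called higher, whereas Dnajb1 (2544 against 4775, -0.91) and Hsph1 (1068 against 1606, -0.59) were the 2 members lower beyond the limit. Mcl1, an anti-apoptotic gene, was at 5339 against 3488 (0.61) and Nfkbia, the NF-kappaB inhibitor, at 9352 against 4139 (1.18). Ptgs2 was at the floor in both groups. Of the 5 members with a separate probe set on the second design, 4 were higher there too (median 2.98), and Jund was the exception (2.05 and -0.20).

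Besides these, Cebpd, a C/EBP transcription factor, was at 3583 against 188 (4.25), with 1.02 from its other probe set. Nr4a3, a relative of Nr4a1, was at 895 against 51.1 (17.5-fold), and Ccn4, a relative of Ccn1, at 1889 against 127 (14.9-fold). Irf2bpl was at 1157 against 50.5 (22.9-fold) on a probe set marked as cross-hybridising, but its plain probe set gave 1.19. Of 13 measured chemokine and cytokine genes, 3 were called higher and 1 lower, and 9 were higher beyond the limit (median 1.34). Cxcl1, a neutrophil chemokine, was at 2602 against a value below the floor (at least 29.8-fold), and 3.95 on the second design. Icam1, an adhesion molecule, was at 1465 against 171 (3.10) and Cxcl10 at 464 against a value below the floor (at least 5.31-fold). Lcn2, a lipocalin of neutrophils and epithelia, was the gene called lower, at 277 against 1473 (-2.41).

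Promoters of immediate-early genes are known for the cAMP response element, bound by CREB, and the CArG box, bound by serum response factor. The element TGACGTCA was found, on either strand within 250 bases before the start, in 3 of 33 list members (9.09%) and 1.77% of all genes. It was in 0 of 32 pachytene and 0 of 44 axoneme genes. The CArG box, searched by its consensus and added after the values were known, was found in 2 of 33 (6.06%) and 1.62% of all genes. It was in 1 of 32 pachytene genes (3.12%) and 0 of 44 axoneme genes. An example of each is shown, from the same promoter table, ending just before the start and with the match in capitals.
Dusp1: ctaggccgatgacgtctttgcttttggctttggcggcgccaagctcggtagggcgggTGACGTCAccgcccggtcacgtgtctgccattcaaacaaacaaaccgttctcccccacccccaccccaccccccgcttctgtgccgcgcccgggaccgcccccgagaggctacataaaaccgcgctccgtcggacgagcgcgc
Zfp36: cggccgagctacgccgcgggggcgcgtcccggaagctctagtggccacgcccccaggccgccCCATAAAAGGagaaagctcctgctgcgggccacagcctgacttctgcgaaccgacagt
They lie at chr17:26508473-26508672 (minus strand, Dusp1) and chr7:28379229-28379348 (minus strand, Zfp36), and the matches begin 143 and 58 bases before the start. Most members, 30 and 31 of the 33, have no such letters in this window.

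Housekeeping groups had small median differences, though not all of their members lay within the error limit. Of 21 cytosolic ribosomal protein genes 20 lay within the error limit and none was called (median 0.28); Rps27 was the exception, at 500 against 256 (0.96). Of 39 nuclear-encoded respiratory chain genes 27 lay within the limit, and 4 were higher and 8 lower beyond it (median -0.14). The 3 called lower were testis isoforms: Cox8c (311 against 6515, -4.39, with -0.70 on the second design), the testis cytochrome c gene Cyct (178 against 2456, -3.79) and Cox6b2 (846 against 5334, -2.66). Their widely expressed counterparts Cox8a (4163 against 1736, 1.26) and Cycs (8119 against 4692, 0.79) were higher in the fraction, and Cox6b1 lay within the limit (0.27).

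In glycolysis several isoforms were lower too, but their counterparts were not all higher. Of 26 measured genes of glycolysis and lactate, 6 were called lower and none higher (median -0.17, and 0.23 on the second design alone). Besides Ldhc, Pgam2 and Pdha2, these were Slc2a3, the glucose transporter GLUT3 (797 against 10537, -3.72), Pgk2, the autosomal phosphoglycerate kinase of spermatocytes (3.02 against 600.0, bound -2.78), and Pfkp (148 against 835, -2.50). Slc2a1, the transporter GLUT1 (848 against 481, 0.82), Hk2 (1592 against 690, 1.21), Pkm (1948 against 832, 1.23) and Slc16a1, a lactate carrier (1286 against 460, 1.48), were higher without reaching the call. The X-linked genes Pgk1 (4560 against 4640, -0.03) and Pdha1 (994 against 991, 0.00), parents of the retrogenes Pgk2 and Pdha2, lay within the error limit. Of 9 measured autosomal retrogenes 5 were called lower and none higher (median -2.78): Cetn1 (12.7 against 4017), Gk2 (3.33 against 2624), Pdha2 (59.0 against 2315), Fam50b (37.9 against 1195) and Pgk2. All 5 were below the floor in the fraction. The list median was -1.87 with quantile normalization or median scaling, -1.42 with the floor at the 60th percentile and -3.78 on the first design alone.

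Genes of the X chromosome, which is silenced in pachytene spermatocytes, were higher in the fraction as a group. The median of 459 measured X-linked genes was 0.51 against -0.01 for 13410 autosomal genes, and the medians of single autosomes ran from -0.10 (chromosome 12) to 0.08 (chromosome 13). The X-linked median minus the autosomal median was 0.52 and ranged from 0.38 to 0.57 over the alternatives, which were added for this value after seeing the data. At 4-fold, 3.05% of X-linked genes were higher and 1.09% lower, against 1.95% and 5.38% on the autosomes.

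A limited check of repeatability came from the companion design. Of 2068 genes read by separate probe sets on each design, 101 were called on the first, and 82 of these (81.2%) had the same direction on the second, while 22 were called again. In the direction of higher calls the counts were 30 of 42 and 10 of 42, and in that of lower calls 52 of 59 and 12 of 59. Of all second-design differences 58.7% were above 0. Over these genes the differences correlated with r = 0.427, and their error, 0.746, was larger than that of the shared probe sets, so calls on single probe sets vary with the probe set read. Some lists repeated poorly: the direction was the same on the second design for 2 of 5 genes of undifferentiated spermatogonia, 3 of 8 of DNA replication and the cell cycle, 2 of 4 of cholesterol synthesis and uptake, and 1 of 3 of keratins and epithelial junctions.

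For the 100 probe sets placed on both designs, each group had 2 arrays and a test was possible. With limma at a Benjamini-Hochberg adjusted p under 0.05, 44 were higher in the spermatogonia fraction (44%) and 10 lower (10%); unadjusted, 45 and 10 were at p under 0.05. These p-values measure the spread between these samples, which may be technical. The largest difference was that of Pabpn1, a nuclear poly(A)-binding protein, with signals of 725 and 860 in the fraction and 201 and 207 in whole testis (log2 1.95 ± 0.18, SE, adjusted p = 3.59e-09). Ube2r2 (1.71) and Cdc42 (1.685) came next, before Cic, a transcriptional repressor. Cic had 655 and 660 against 214 and 242 (1.53 ± 0.17, adjusted p = 3.76e-08). Lowest were Dhrs1, a short-chain dehydrogenase, with 153 and 135 against 477 and 374 (-1.56 ± 0.22, adjusted p = 2.59e-06), and Tmem129, with 384 and 386 against 830 and 836 (-1.12 ± 0.17, adjusted p = 9.47e-06). In the probe sets of Pabpn1, Cic, Dhrs1 and Tmem129 the values of the groups did not overlap, as in 75 of the 100 shared probe sets. In each the difference on the 2 designs had the same sign. These 4 were picked with their differences on these same arrays known, so neither point is a further check. None of the 4 marker genes given for the comparison was among these probe sets. With the values as deposited the counts were 15 and 2, with quantile normalization 17 higher, and without the spermatogonia or the whole testis array of the second design 26 and 29 higher.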

How the data were processed

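Microarray signals of 10 samples (5 groups, 2 samples each) were used, 4 of them for the comparison. The values deposited by the authors are linear-scale intensities, 1 per probe set; per the submitters' processing notes the software was GCOS 1, while the sources used here do not give how signals were scaled or background-corrected. Per the labels' protocols, RNA was amplified into biotin-labelled cRNA, and the same dissociation text is given for every sample. On each design (22690 and 22575 probe sets) arrays were scaled to a common 2% trimmed mean. On the first design the floor was the 90th percentile of 71 probe sets for chemosensory receptors and, as the second held only 14, the median of its signals. Probe sets naming 1 gene (20380 and 14661) were kept and those naming several (691 and 245) or none (1555 and 7605) were not used; names were updated through Entrez IDs (20351 and 14486 matched). A gene was read from the probe set of highest mean log2 signal, on the first design where above the floor (11909 genes, and 6284 on the second). A call was a 4-fold difference of log2 scaled signal. The 100 shared probe sets were tested with limma 3.58.1 (R 4.3.3) over all groups, which share the spread. Medians of lists count members at the floor in 1 group at their bound.

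The text names, in each direction, the 10 largest differences where both groups were above the floor, the 6 brightest genes called against it (leaving out unnamed clones and genes with another probe set opposed by over 1 log2) and members of 28 lists. The comparison, its markers and the lists were chosen with earlier results of these data known, and 2 lists (pancreas, and liver and intestine) after these signals were seen. Same-numbered samples' deviations correlated by 0.322 between the spermatogonia fraction and whole testis. Over all pairs of groups this correlation ran from -0.02 to 0.57, so the numbers are not shown to pair samples. The steps were tested on simulated data. Alternatives are given at the end.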

Additional observations from a re-analysis of the deposited data

How the results depend on the processing

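The list medians were recomputed under 12 settings and the higher and lower calls under 14, which add 3-fold and 6-fold. The Leydig, endothelial, red blood cell, retrogene, ribosomal, respiratory chain and pancreas lists had too few genes for a median on the second design alone (fewer than 3 measured), and the red blood cell list also in 3 other settings. The markers and named genes kept their direction wherever a value was obtained. Of the 4 given markers Etv5 was below 4-fold with scaling to the shared probe sets (1.63) and with log2 of signal plus the floor (1.64), while with quantile normalization, median scaling or the first design alone it was read from a first-design probe set at the floor in both groups and had no value. Ccnd2 was above 4-fold with the mean over probe sets (2.28). Irf2bpl was below it with that mean (1.90) and with plain probe sets (1.19).

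Higher calls numbered 155 with log2 of signal plus the floor, 183 with the mean over probe sets, 608 at 3-fold and 106 at 6-fold, against 277; lower calls numbered 464 at 6-fold, against 731. The first design alone gave 191 higher and 406 lower, the second alone 159 and 361, since each holds fewer genes. The share of higher among all calls was 27.5%, and 18.0% with scaling to the shared probe sets.

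For the lists below the cause of each move was not tested. The retrogene median was -1.87 with quantile normalization and with median scaling, -2.04 as deposited, -1.87 and -1.42 with floors at the 40th and 60th percentile, -1.86 with plain probe sets and -3.78 on the first design alone. With scaling to the shared probe sets the medians were -1.28 for spermatid, -1.84 for piRNA, -3.06 for axoneme, -0.46 for glycolysis and -2.73 for liver and intestinal genes. With the floor at the 40th percentile the epididymal median was -1.55, and at the 60th the medians were -1.29 for epididymal, -3.54 for pachytene, 0.60 for cholesterol, 3.05 for immediate-early, 1.05 for chemokine, -1.32 for other organ, -3.47 for pancreas and -1.64 for liver and intestinal genes. With log2 of signal plus the floor they were -1.37 for synaptonemal complex, -3.70 for pachytene, -1.18 for spermatid, 2.80 for immediate-early, -0.58 for other organ and -4.10 for pancreas genes. The mean over probe sets gave -1.70 for spermatid, 0.92 for chemokine, -0.26 for keratin, -1.97 for axoneme and -0.47 for other organ genes. Plain probe sets gave 0.57 for cholesterol, -0.068 for keratin, -0.68 for glycolysis and -0.25 for other organ genes. The first design alone gave 0.41 for undifferentiated spermatogonia, -1.79 for spermatid and -2.38 for epididymal genes. The second alone gave -0.98 for differentiating spermatogonia, -1.95 for synaptonemal complex, -1.28 for recombination, 0.49 for peritubular, 1.86 for basement membrane, -0.13 for macrophage, 2.30 for chemokine, 0.61 for keratin, 0.23 for glycolysis, -1.15 for epididymal and -1.49 for liver and intestinal genes. Leaving out genes at the floor in all 3 fractions, chosen after seeing the data, gave -1.29 for spermatid, 0.059 for keratin, -0.31 for other organ and -1.15 for epididymal genes. The medians of the keratin list (in 2 settings) and of the differentiating spermatogonia and glycolysis lists (on the second design alone) thus changed sign. Bounds shrank with the floor at the 60th percentile, as for Ldhc (-6.20, against -7.57).

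The share of companion-design genes with the same direction ranged from 79.2% to 83.8% over the scalings, which were also added after seeing the data. With the replicate block, where the number is also the array design, 46 shared probe sets were higher and 12 lower, against 44 and 10. As deposited they were 15 and 2, with quantile normalization 17 higher, and without 1 of the 4 arrays from 26 to 41 higher. The estimated error covers bright probe sets only, and differences near the floor are less certain than it states.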
